A study of Homo sapiens with 12 samples.

Results

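NRF2 (gene NFE2L2), its inhibitor KEAP1 and 8 genes of enzymes and related proteins that NRF2 is known to control were followed in the established human melanoma line A2058 after SOX10 had been lowered with either of 2 siRNAs. The 10 genes were matched by name among the 61587 genes of a TPM table (transcript abundances scaled by gene length and to the same total in every library). They were picked because they were seen to differ between the 2 SOX10 siRNAs, so that difference is described here and not tested. Cells were transfected with a first SOX10 siRNA (siSOX10_1), a second one (siSOX10_2) or a negative control siRNA (siCNTL), each at 12.5 nM for 96 hours, or were left untreated. Each of the 4 groups had 3 libraries, 1 in each of 3 batches. Since nothing in the labels says that replicates were separate cultures, p-values measure only the spread between these libraries. SOX10, a transcription factor of neural crest and melanocyte cells, averaged 9.64 ± 5.47 TPM in siSOX10_1 cells and 8.34 ± 3.83 TPM in siSOX10_2 cells, against 31.8 ± 4.40 TPM with siCNTL and 26.9 ± 5.14 TPM in untreated cells (SD, n = 3 each).

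NRF2 is a transcription factor that binds antioxidant response elements in DNA together with a small MAF protein. KEAP1 holds it in the cytoplasm and passes it to a ubiquitin ligase built on CUL3, so NRF2 is controlled largely through the turnover of its protein. Oxidants and electrophiles that modify KEAP1 let NRF2 build up, and genes of glutathione synthesis, the thioredoxin system, quinone and carbonyl reduction, NADPH supply and iron storage are then transcribed more.

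The core of the antioxidant response element was searched as the letters TGACNNNGC on both strands in RefSeq promoter windows (GRCh38.p14, from 250 bases before to 50 bases after each annotated start). Of the 10 genes 9 were matched by symbol, all but AKR1B10. KEAP1, TXNRD1 and GCLM held the letters, which is 3 of 9, beside 19.3% of the 10603 tested genes in the promoter table and 13.3% of all 35116 windows. None of the matches printed here overlapped the AP-1 letters TGACTCA or TGAGTCA. The sites are shown because they are where these promoters hold the element's letters, each read 5′ to 3′ on the strand that carries TGAC, with the 9 matching letters in capitals.
GCLM, chr1:93909446-93909474, plus strand: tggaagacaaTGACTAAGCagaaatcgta
KEAP1, chr19:10502784-10502812, plus strand: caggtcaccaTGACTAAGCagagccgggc
KEAP1, chr19:10502807-10502835, minus strand: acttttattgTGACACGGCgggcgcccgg
TXNRD1, chr12:104215670-104215698, plus strand: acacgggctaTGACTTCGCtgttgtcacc
TXNRD1, chr12:104215761-104215789, minus strand: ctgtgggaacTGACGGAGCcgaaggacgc
TXNRD1, chr12:104286920-104286948, minus strand: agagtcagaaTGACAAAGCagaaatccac
PGD, chr1:10398853-10398881, minus strand: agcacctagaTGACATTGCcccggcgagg
The GCLM site and the first KEAP1 site carry the same 9 letters. PGD, an enzyme of NADPH supply that is described with the other pathway genes, is shown with them. The 250 bases before the first annotated start of TXNRD1 (chr12:104215529-104215778, plus strand) give the wider setting of its first site.
TXNRD1: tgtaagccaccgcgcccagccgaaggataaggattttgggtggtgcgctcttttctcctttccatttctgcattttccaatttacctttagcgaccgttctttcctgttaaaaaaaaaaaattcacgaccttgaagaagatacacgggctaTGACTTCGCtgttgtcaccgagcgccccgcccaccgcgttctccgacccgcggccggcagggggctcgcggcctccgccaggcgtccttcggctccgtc
A match is a description of the letters and was not tested as a binding site.

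Of the 8 targets 7 had their highest mean with siSOX10_1, all but OSGIN1, while the RNA of NRF2 itself overlapped between all 4 groups. The 7 include AKR1C1, which was under 1 TPM in every library. Because the genes were picked for differing between the siRNAs, the count of 7 gives no support of its own. The share of all genes with their highest mean in siSOX10_1 was not counted. The mean of both siRNAs was compared with siCNTL, which uses the same siRNA libraries as the difference that chose the genes. In it NQO1, AKR1C3, AKR1B10, TXNRD1, SRXN1 and GCLM rose and NFE2L2, KEAP1 and OSGIN1 did not pass the test. For NQO1 and SRXN1 the rise lay mostly in siSOX10_1 (1.96 and 1.03 on the log2 scale). With siSOX10_2 they differed from siCNTL by 0.22 ± 0.249 and 0.10 ± 0.182. AKR1C1 was too low to be tested. The 6 that rose were among 9 tested. Of all 15738 genes tested, 33.1% were called in this comparison and 20.2% were called higher (limma adjusted p under 0.05), or 2620 higher and 2590 lower when the TPM were rescaled by the median of ratios, against 3185 and 2023 as deposited. AKR1C3 and AKR1B10 reached the minimum level for testing only through the libraries in which they were high, so this count gives no support of its own. The p-values of the 6 come from the siRNA libraries that chose the genes and carry the same limit. Differences are given as log2(TPM + 1) with their standard error from limma, a scale on which low genes change less than in TPM.

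**Figure D1:**
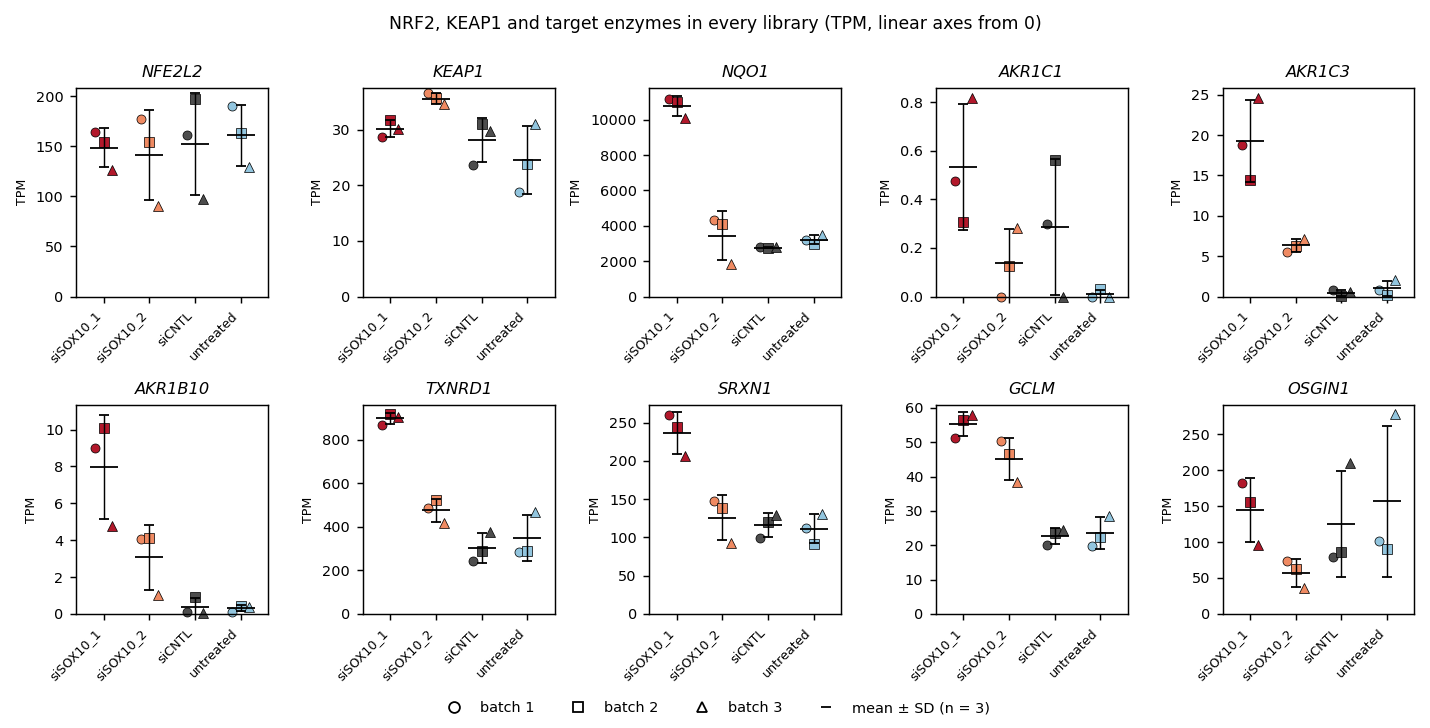
TPM of the 10 genes in each library (vertical axes, linear and starting at 0) for the 4 groups, with a symbol for each batch and the mean ± SD of 3 libraries. NQO1 lay at 10129 to 11167 TPM with siSOX10_1 and at or below 4349 TPM in every other library, while NFE2L2 ranged from 90.6 to 198 TPM with the groups overlapping.

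NFE2L2 (ENSG00000116044.16, chromosome 2, 177227595 to 177392697, minus strand, GRCh38), which encodes NRF2, was at 164, 155 and 127 TPM with siSOX10_1 in batches 1, 2 and 3. With siSOX10_2 it was at 177, 154 and 90.6 TPM. The siCNTL libraries had 161, 198 and 97.2 TPM and the untreated ones 190, 163 and 129 TPM. All 4 groups overlapped, and in each group batch 3 was the lowest. The mean of both siRNAs differed from siCNTL by -0.04 ± 0.242 on the log2 scale (adjusted p = 0.918).

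KEAP1 (ENSG00000079999.14, chromosome 19, 10486125 to 10503558, minus strand), the adaptor that marks NRF2 for degradation, was lower with siSOX10_1 than with siSOX10_2, the opposite of the enzymes. It was at 28.7, 31.8 and 30.3 TPM with siSOX10_1 and at 36.6, 35.7 and 34.6 TPM with siSOX10_2, against 23.7, 31.1 and 29.9 TPM with siCNTL and 18.8, 23.8 and 31.1 TPM in untreated cells. The siSOX10_2 libraries lay above all other libraries, and the siSOX10_1 libraries overlapped the siCNTL ones. The mean of both siRNAs differed from siCNTL by 0.22 ± 0.150 (adjusted p = 0.294). It passed against untreated cells (0.43, adjusted p = 0.0405).

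NQO1 (ENSG00000181019.13, chromosome 16, 69706996 to 69726668, minus strand), the quinone reductase most used as a readout of NRF2, was the most abundant of the 10 genes. It had 11167, 11028 and 10129 TPM with siSOX10_1 and 4349, 4125 and 1861 TPM with siSOX10_2. The siCNTL libraries had 2774, 2745 and 2783 TPM, and the untreated ones 3218, 2958 and 3476 TPM. Every siSOX10_1 library stood above every other library, whereas the siSOX10_2 libraries of batches 1 and 2 lay above siCNTL and that of batch 3 lay below it. With siSOX10_1 NQO1 ranked between 4 and 6 among all genes of the table and made up 1.01% to 1.12% of all TPM. It ranked 12 to 49 with siSOX10_2, 25 in each siCNTL library and 18 to 24 in untreated cells.

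The siSOX10_1 mean of NQO1 was 3.89 times that of siCNTL and 3.13 times that of siSOX10_2, and the siSOX10_2 mean was 1.24 times that of siCNTL. In log2 terms siSOX10_1 differed from siCNTL by 1.96 ± 0.249 and siSOX10_2 by 0.22 ± 0.249. The mean of both rose by 1.09 ± 0.215 (adjusted p = 0.00260). That rise lay mostly in siSOX10_1, and the p-value comes from the siRNA libraries that chose the gene, so it gives no support of its own. An antisense lncRNA over NQO1, ENSG00000261602, averaged 46.5 TPM in siSOX10_1 libraries and 19.5 TPM in siSOX10_2 libraries, against 8.97 TPM with siCNTL and 11.3 TPM in untreated cells. The sources do not say if strand was used in counting, and the 2 genes may share reads.

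The aldo-keto reductases reduce aldehydes, ketones and steroids with NADPH, and AKR1C3 and AKR1B10 were at a low but measurable level with both siRNAs and mostly under 1 TPM in the controls. AKR1C3 (ENSG00000196139.14, chromosome 10, 5035354 to 5107686, plus strand), which reduces prostaglandins and 17-ketosteroids, was at 18.7, 14.5 and 24.6 TPM with siSOX10_1 and at 5.47, 6.31 and 7.18 TPM with siSOX10_2. It was at 0.759, 0.072 and 0.620 TPM with siCNTL and at 0.824, 0.210 and 1.99 TPM in untreated cells. The siSOX10_1, siSOX10_2 and control libraries formed 3 ranges with no overlap. The rise in the mean of both siRNAs was 3.05 ± 0.286 (adjusted p = 5.74e-06). AKR1C3 reached the minimum level for testing only through the siRNA libraries, so this p-value gives no support of its own. Because the control level is so low, the size of the rise depends on the pseudocount, from 1.59 with 5 to 4.54 with 0.1.

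AKR1B10 (ENSG00000198074.10, chromosome 7, 134527567 to 134541412, plus strand), a reductase of retinal and of reactive aldehydes, was at 9.03, 10.1 and 4.77 TPM with siSOX10_1 and at 4.05, 4.10 and 1.05 TPM with siSOX10_2. No siCNTL library had more than 0.940 TPM and no untreated library more than 0.429 TPM. Both siRNA groups lay above both control groups, and batch 3 was the lowest library of each. The rise was 2.13 ± 0.339 (adjusted p = 0.000385), with 0.91 at a pseudocount of 5 and 3.92 at 0.1. AKR1B10 too reached the minimum level for testing only through the siRNA libraries, so its p-value gives no support of its own. Its neighbour in sequence AKR1B15, which is not among the 10 genes, was at 4.78, 5.54 and 3.80 TPM with siSOX10_1 and at 2.92, 2.53 and 1.35 TPM with siSOX10_2, and was listed at 0 in all 6 control libraries. Aldo-keto reductase genes resemble each other closely, and the level of each is uncertain because shared reads could have been divided.

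AKR1C1 (ENSG00000187134.14, chromosome 10, 4963253 to 4983283, plus strand), which inactivates progesterone, stayed under 1 TPM in all 12 libraries. It was at 0.474, 0.308 and 0.818 TPM with siSOX10_1 and at 0, 0.124 and 0.284 TPM with siSOX10_2, against 0.297, 0.560 and 0 TPM with siCNTL and 0, 0.029 and 0 TPM in untreated cells. Its siRNA and siCNTL libraries overlapped. The table holds no counts, so no limit can be set on these low values and no fold is given. The near-identical AKR1C2 was no higher than 0.541 TPM anywhere.

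Thioredoxin reductase 1 and sulfiredoxin keep thioredoxin and the peroxiredoxins in working order. TXNRD1 (ENSG00000198431.17, chromosome 12, 104215779 to 104350307, plus strand), the cytosolic reductase, was at 869, 920 and 904 TPM with siSOX10_1 and at 485, 523 and 419 TPM with siSOX10_2. The siCNTL libraries had 243, 288 and 379 TPM and the untreated ones 284, 291 and 469 TPM. Both siRNA groups stood above siCNTL, siSOX10_1 by 2.96 times and siSOX10_2 by 1.57 times in the means, and the siSOX10_2 group overlapped the untreated one. The rise in the mean of both was 1.13 ± 0.164 (adjusted p = 0.000210). TXNRD1, whose promoter sites are printed above, contains the processed pseudogene RPL18AP3 on its own strand, which averaged 291 TPM over all libraries and 234 TPM with siSOX10_1, 319 TPM with siSOX10_2, 335 TPM with siCNTL and 277 TPM in untreated cells.

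SRXN1 (ENSG00000271303.2, chromosome 20, 646615 to 653200, minus strand), which reduces over-oxidised peroxiredoxins, was at 260, 244 and 206.6 TPM with siSOX10_1 and at 147, 138 and 92.5 TPM with siSOX10_2. The siCNTL libraries had 98.8, 120 and 129 TPM and the untreated ones 113, 91.5 and 130 TPM. Every siSOX10_1 library was above every other library, and the siSOX10_2 libraries overlapped both control groups. The mean of both siRNAs rose by 0.56 ± 0.158 (adjusted p = 0.0146), mostly through siSOX10_1 (1.03, against 0.10 with siSOX10_2). This p-value too comes from the siRNA libraries that chose the gene and gives no support of its own. With siCNTL replicate 1 left out it no longer passed (0.45, adjusted p = 0.0911).

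GCLM (ENSG00000023909.10, chromosome 1, 93885199 to 93909456, minus strand), the modifier subunit of the enzyme that starts glutathione synthesis, differed least between the siRNAs among the tested targets. It was at 51.3, 56.6 and 57.9 TPM with siSOX10_1 and at 50.3, 46.5 and 38.5 TPM with siSOX10_2, against 20.2, 23.7 and 24.5 TPM with siCNTL and 19.7, 22.3 and 28.6 TPM in untreated cells. The 2 siRNA groups overlapped neither the controls nor each other, and they came close to each other in batch 1. The rise was 1.10 ± 0.139 (adjusted p = 6.69e-05), and the siSOX10_1 mean was 1.22 times the siSOX10_2 mean.

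OSGIN1 (ENSG00000140961.14, chromosome 16, 83931311 to 83966332, plus strand), an oxidative stress-induced growth inhibitor, differed strongly between batches. It was at 182, 155 and 95.5 TPM with siSOX10_1 and at 73.6, 62.3 and 35.7 TPM with siSOX10_2, against 79.1, 86.0 and 210.6 TPM with siCNTL and 101, 90.0 and 278 TPM in untreated cells. In batch 3 the control libraries were the highest and the siRNA libraries the lowest of their groups. The mean of both siRNAs differed from siCNTL by -0.36 ± 0.440 (adjusted p = 0.576). Without batch 3 the direction turned, to 0.37 (adjusted p = 0.0184). Within batches siSOX10_1 exceeded siCNTL by 1.19 and 0.85 in batches 1 and 2, and differed from it by -1.13 in batch 3.

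**Figure D2:**
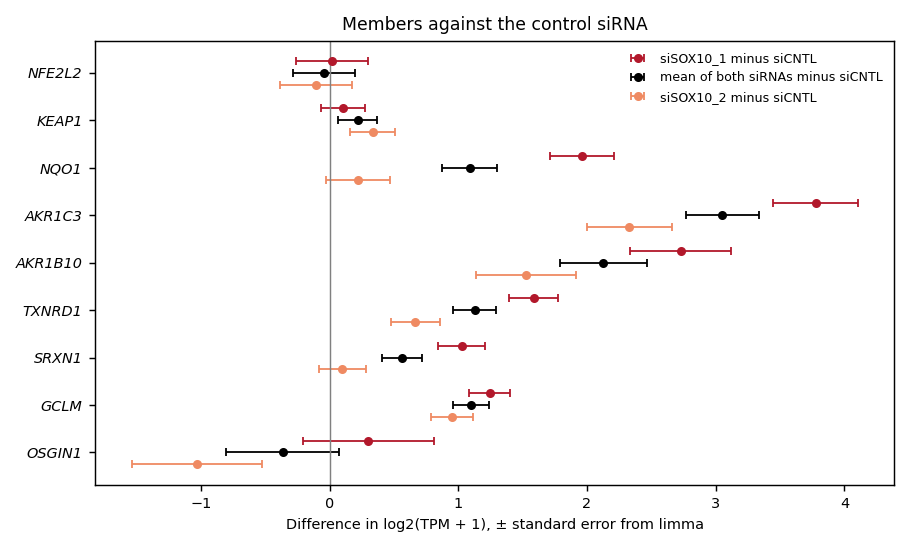
Difference from siCNTL in log2(TPM + 1) (horizontal axis) with its standard error from limma, for the 9 genes tested, with siSOX10_1, siSOX10_2 and the mean of both. GCLM has close values for both siRNAs (1.24 and 0.95), NQO1 has values far apart (1.96 and 0.22), and NFE2L2 is near 0 throughout.

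The difference between the siRNAs, which chose the genes, was positive in all 3 batches for the 8 targets, negative in all 3 for KEAP1, and mixed for NFE2L2. The 8 include AKR1C1, which was under 1 TPM in every library. In the group means siSOX10_1 exceeded siSOX10_2 by 1.74 ± 0.249 for NQO1 and by 1.45 ± 0.331 for AKR1C3. The difference was 1.33 ± 0.507 for OSGIN1, 1.20 ± 0.391 for AKR1B10, 0.93 ± 0.182 for SRXN1 and 0.92 ± 0.189 for TXNRD1. It was smallest among the tested targets for GCLM, at 0.29 ± 0.160, and was 0.12 ± 0.279 for NFE2L2 and -0.23 ± 0.174 for KEAP1. Of the 15738 genes tested 1.56% were called by limma in this comparison, a different and stricter measure than the same sign in all 3 batches. The share of all genes with the same sign in all 3 batches was not counted. The count of 8 therefore gives no support of its own.

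Batch 3 widened the gap between the siRNAs for several targets. For NQO1 siSOX10_1 exceeded siSOX10_2 by 1.36, 1.42 and 2.44 in batches 1, 2 and 3, and for SRXN1 by 0.81, 0.82 and 1.15. OSGIN1 was even across batches, at 1.29, 1.30 and 1.39. Against siCNTL, the siSOX10_2 library of batch 3 was lower by 0.58 for NQO1, 0.47 for SRXN1 and 2.53 for OSGIN1, while it was higher by 2.34 for AKR1C3, 0.99 for AKR1B10, 0.63 for GCLM and 0.15 for TXNRD1. SOX10 itself was lowest in batch 3 of both siRNAs, with 3.32 TPM for siSOX10_1 and 4.24 TPM for siSOX10_2, against 36.8 TPM in the siCNTL library of that batch. Its part in the batch 3 values was not tested.

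**Figure D3:**
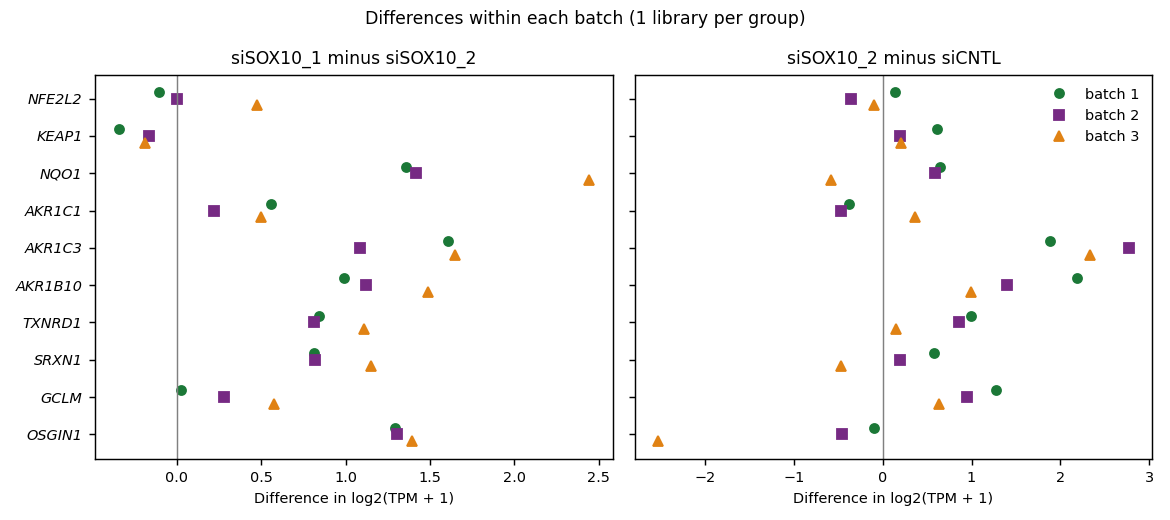
Differences within each batch in log2(TPM + 1) (horizontal axes), with 1 library per group and a symbol for each batch, for siSOX10_1 minus siSOX10_2 on the left and siSOX10_2 minus siCNTL on the right. The 8 targets lie right of 0 in all 3 batches on the left, and NQO1, SRXN1 and OSGIN1 of batch 3 lie left of 0 on the right.

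None of the 9 tested genes was called between siCNTL and untreated cells, and limma called none (0%) of all 15738 genes. At an unadjusted p under 0.05 there were 581 genes (3.69%), none of them among the 9, whose lowest unadjusted p was 0.244. The differences ran from -0.37 ± 0.331 for AKR1C3 to 0.21 ± 0.174 for KEAP1. NQO1 was lower in siCNTL than in untreated cells in all 3 batches, with a difference of -0.21 ± 0.249.

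A further 69 genes of the pathway were listed by role from textbook knowledge, with the difference in FTL already known, and 62 of them were tested. In the mean of both siRNAs against siCNTL 15 rose and 11 fell, which is 24.2% and 17.7% of the 62, beside 20.2% and 12.9% of all genes tested. Their median difference was 0.13, beside 0.08 for all genes. With siSOX10_1 alone 20 rose and 6 fell, where 27.3% of all genes were called (15.6% higher and 11.7% lower). With siSOX10_2 alone 12 rose and 12 fell, where 28.8% of all genes were called (18.4% higher and 10.4% lower), or 10 and 18 after median-of-ratios scaling. That scaling called 2192 of all 15738 genes higher and 2202 lower, against 2898 and 1641 as deposited, and the median of all genes was 0.009 instead of 0.12. Both comparisons share the siCNTL libraries.

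Among 11 tested regulators 2 rose and 1 fell. NFE2L1 (0.78, adjusted p = 0.000657) and NFE2L3 (0.78, adjusted p = 0.000829), relatives of NRF2 in the CNC family, rose, and MAFF, a small MAF partner, fell by 0.61 (adjusted p = 0.00161). CUL3 (0.29, adjusted p = 0.155) and BACH1 (0.42, adjusted p = 0.0537), a repressor at the same DNA elements, did not pass. BACH1 was called in 4 of 19 alternative fits (adjusted p from 0.0216 to 0.192) and CUL3 in 1 (adjusted p from 0.0284 to 0.430). NFE2L1 was at 51.6, 45.6 and 47.8 TPM with siSOX10_1 and 37.9, 43.7 and 34.8 TPM with siSOX10_2, against 20.5, 27.8 and 26.6 TPM with siCNTL.

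Genes of NADPH supply moved in both directions. Of 6 tested, 3 rose and 2 fell. PGD (0.83, adjusted p = 5.97e-06), a dehydrogenase of the pentose phosphate pathway, rose, as did the malic enzyme ME1 (0.69). TALDO1, a transaldolase of the same pathway, and the cytosolic isocitrate dehydrogenase IDH1 fell by 0.43 and 1.16. Against siCNTL TALDO1 was called with siSOX10_2 (-0.78, limma adjusted p = 0.000582) and not with siSOX10_1 (-0.09, adjusted p = 0.654). IDH1 was at 124, 130 and 76.8 TPM with siSOX10_1 and 129, 131 and 92.1 TPM with siSOX10_2, against 245, 268 and 237 TPM with siCNTL, and the siRNA groups overlapped.

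Of 12 other glutathione genes tested, GSTM3, a glutathione transferase, rose by 0.73 (adjusted p = 7.65e-05) and GSTA4 fell by 1.12 (adjusted p = 0.0472). The GSTA4 call was kept in 9 of 19 alternative fits, with adjusted p up to 0.184. GSTA4 passed with siSOX10_2 (-1.45, limma adjusted p = 0.0324) and not with siSOX10_1 (-0.79, adjusted p = 0.230). The catalytic partner of GCLM, GCLC, was at 14.0, 14.5 and 11.6 TPM with siSOX10_1 and 8.28, 10.2 and 8.64 TPM with siSOX10_2, against 10.4, 10.3 and 9.33 TPM with siCNTL, and did not pass (0.12, adjusted p = 0.564). In the thioredoxin list 1 of 5 changed, TXN (thioredoxin), which fell by 0.29 (adjusted p = 0.0184, and up to 0.0748 in 19 alternative fits). TXN passed with siSOX10_2 (-0.42, limma adjusted p = 0.00604) and not with siSOX10_1 (-0.16, adjusted p = 0.257).

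Of 12 tested genes in the quinone and carbonyl list, not all of them reductases, 3 fell, 1 rose and 8 did not pass. PIR (pirin) and the carbonyl reductases CBR1 and CBR3 fell by 1.73, 0.73 and 0.87, and the aldose reductase AKR1B1 rose by 0.99 (adjusted p = 0.000189). PIR was at 262, 246 and 184 TPM with siSOX10_1 and 188, 178 and 63.4 TPM with siSOX10_2, against 625, 594 and 504 TPM with siCNTL. Among 7 haem and iron genes FTL, the ferritin light chain, and SLC48A1, a haem transporter, rose by 0.90 and 1.01, and the biliverdin reductases BLVRA and BLVRB fell by 0.34 and 0.81. The BLVRA call held in 12 of 19 alternative fits, with adjusted p up to 0.133. BLVRA and BLVRB passed with siSOX10_2 (-0.38 and -1.15, limma adjusted p = 0.0395 and 0.00125). With siSOX10_1 they did not (-0.30 and -0.47, adjusted p = 0.102 and 0.112). The FTL rise lay mostly in siSOX10_1 (1.54, against 0.26 with siSOX10_2). HMOX1, the haem oxygenase that is a classical NRF2 target, did not pass (-0.45, adjusted p = 0.0854), though it was called in 4 of 19 alternative fits (adjusted p from 0.0227 to 0.310). It was at 15.4, 14.2 and 9.97 TPM with siSOX10_1 and 10.9, 10.6 and 10.4 TPM with siSOX10_2, against 19.6, 17.8 and 12.7 TPM with siCNTL.

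In the list of transporters and other targets 6 of 9 rose and 1 fell, the drug and nucleotide exporter ABCC4. LUCAT1, a long noncoding RNA that responds to NRF2, rose most, by 3.83 ± 0.295 (adjusted p = 1.08e-06). It was at 29.02, 33.9 and 36.6 TPM with siSOX10_1 and at 45.2, 38.4 and 38.5 TPM with siSOX10_2, against 3.41, 1.04 and 1.04 TPM with siCNTL, and so was not higher with siSOX10_1. The TRIM16 and TRIM16L pair rose by 1.39 and 1.67, and NR0B1, an orphan nuclear receptor, by 1.65. TRIM16 and TRIM16L are near-identical copies and their reads may be split.

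Of the 62 tested, 8 were called higher with siSOX10_1 than with siSOX10_2 and none lower, which is 12.9% beside 0.489% of all genes called higher and 1.07% called lower in that comparison (131 genes higher and 105 lower after median-of-ratios scaling, against 77 and 168 as deposited). Of the 62, 44 had a positive difference, with a median of 0.24 beside -0.08 for all genes. Of the 8, 7 are described here, FTL, GSTM2, TRIM16, SQSTM1, PGD, TALDO1 and PRDX1. The genes were listed with the FTL difference and earlier results of these data known. The share of 12.9% therefore gives no support of its own. The count of 8 was 2 without siSOX10_1 replicate 1, 5 without siSOX10_1 replicate 2, and 4 without either siSOX10_2 replicate 2 or siSOX10_2 replicate 3, and it was 12, all higher, with the batch as a block. Without filter on low genes it was 5. In the same fits the count over all genes, 245 as deposited, was 76, 99, 73, 76, 488 and 123. The single pathway gene called lower in any of 19 alternative fits was GGT1, with a pseudocount of 5 (adjusted p = 0.0310) and without siCNTL replicate 1 (0.0454) or siCNTL replicate 2 (0.0361).

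**Figure D4:**
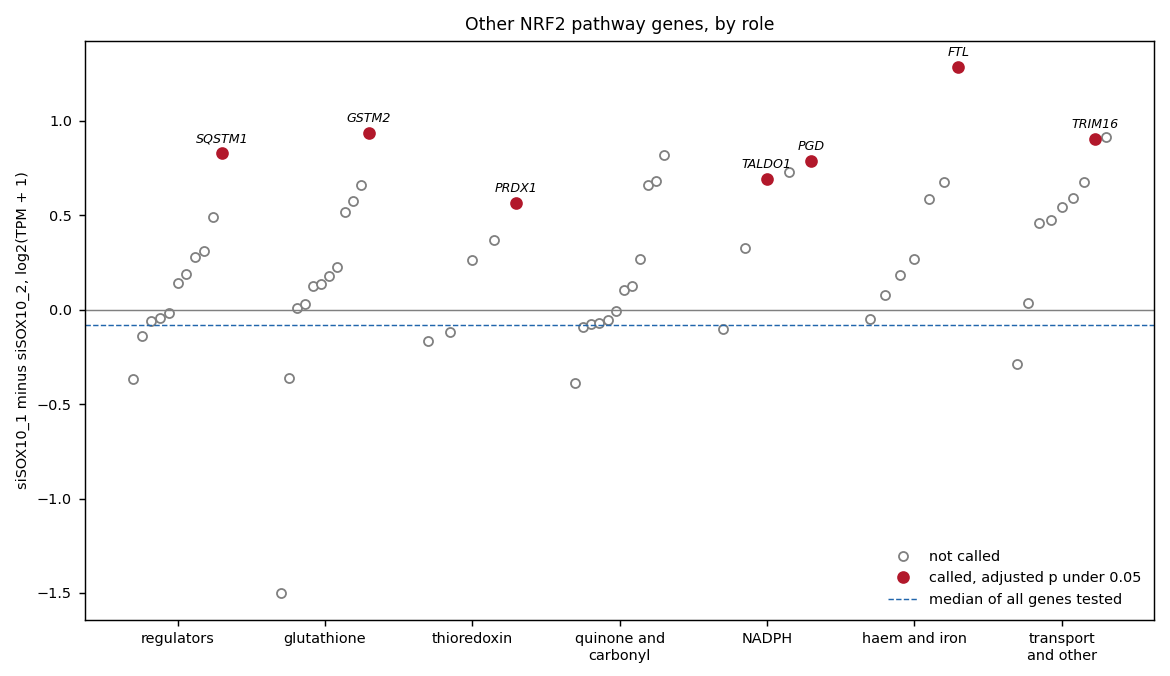
Difference siSOX10_1 minus siSOX10_2 in log2(TPM + 1) (vertical axis) for the other pathway genes described here, grouped by role, with filled points for the 7 called at an adjusted p under 0.05 and a dashed line at the median of all genes tested (-0.08). All 7 filled points lie above 0, from 0.56 (PRDX1) to 1.28 (FTL).

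FTL stores iron as part of ferritin and was the most abundant of the 7. It was at 38904, 35430 and 30299 TPM with siSOX10_1 and at 19315, 16412 and 9124 TPM with siSOX10_2, against 11380, 12188 and 12137 TPM with siCNTL. The siRNA groups did not overlap, and the siSOX10_2 library of batch 3 lay below the siCNTL libraries, as for NQO1. The difference between the siRNAs was 1.28 ± 0.211 (adjusted p = 0.0155, and up to 0.0765 in 19 alternative fits). This difference was known before FTL was listed, so its p-value gives no support of its own. FTL has many processed copies in the genome, so its level is uncertain.

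PGD and TALDO1 act in the pentose phosphate pathway. PGD was at 333, 323 and 332 TPM with siSOX10_1 and at 203, 188 and 180 TPM with siSOX10_2, against 140, 153 and 129 TPM with siCNTL, and its difference between the siRNAs of 0.79 ± 0.0906 (adjusted p = 0.00209) passed in all 19 alternative fits. TALDO1 had 552, 541 and 547 TPM with siSOX10_1 and 413, 355 and 264 TPM with siSOX10_2, against 570, 608 and 567 TPM in the siCNTL libraries, and differed between the siRNAs (0.69 ± 0.127, adjusted p = 0.0190). That call held in 15 of 19 alternative fits, with adjusted p up to 0.0833.

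SQSTM1 encodes p62, which binds KEAP1 and directs it to autophagy. It was at 1607, 1571 and 1520 TPM with siSOX10_1 and at 1014, 992 and 680 TPM with siSOX10_2, against 1148, 1425 and 1120 TPM with siCNTL, which lay between them. The difference between the siRNAs was 0.83 ± 0.138 (adjusted p = 0.0116). PRDX1, a peroxiredoxin, and GSTM2, a glutathione transferase with close paralogs, differed by 0.56 ± 0.0946 (adjusted p = 0.0119) and 0.93 ± 0.187 (adjusted p = 0.0275). GSTM2 passed in 12 of 19 alternative fits, with adjusted p up to 0.114. SQSTM1 and PRDX1 each passed in 18 of 19 (up to 0.0562 and 0.0531). For TRIM16, a ubiquitin ligase, the difference was 0.91 ± 0.157 (adjusted p = 0.0155, and up to 0.0656 in 19 alternative fits, of which 16 called it), with 386, 345 and 417 TPM with siSOX10_1 and 217.4, 205 and 189 TPM with siSOX10_2, against 95.3, 111 and 112 TPM with siCNTL. Of the 8 genes called, 6 were in the promoter table and PGD alone held the element's letters, which is 16.7%. The letters were held by 38.9% of the 54 other pathway genes in that table and by 19.3% of the tested genes.

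**Figure D5:**
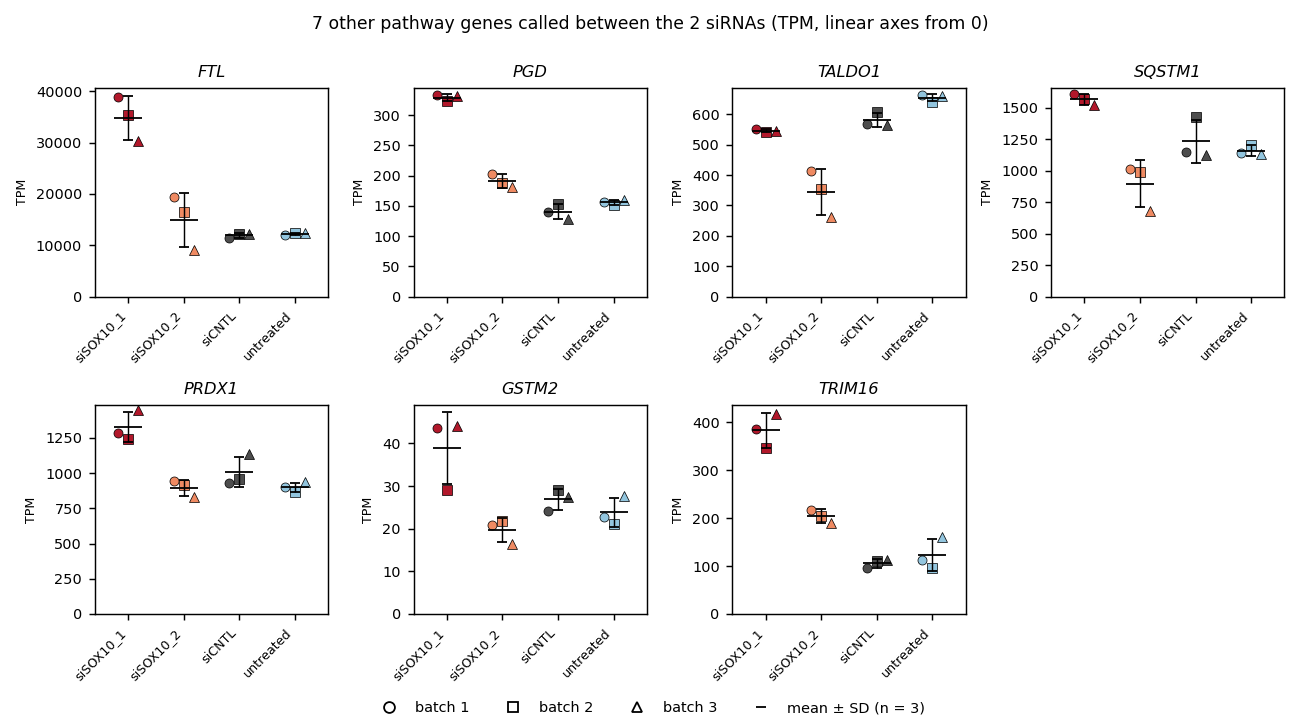
TPM in each library (vertical axes, linear and starting at 0) of 7 other pathway genes called between the siRNAs, with a symbol for each batch and the mean ± SD of 3 libraries per group. FTL, PGD and TRIM16 are highest with siSOX10_1, and TALDO1 and SQSTM1 with siSOX10_2 lie below the siCNTL libraries.

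Within the 8 targets, TXNRD1, SRXN1 and NQO1 varied most alike across the 12 libraries. The Pearson correlation of each target with the mean standardised log2 level of the other 7 was 0.959 for TXNRD1, 0.949 for SRXN1 and 0.925 for NQO1, and 0.142 for OSGIN1. NFE2L2 had 0.0007 and KEAP1 0.406 with the mean of all 8. These are descriptions over libraries that share groups and batches. The targets were picked for differing between the siRNAs in these same libraries, so part of their likeness follows from that choice. The mean of all 8 also includes AKR1C1, which was under 1 TPM throughout. Of 8 genes outside the 10 whose levels followed that mean most closely (r of 0.955 to 0.969 among genes averaging at least 5 TPM), 2 were on the pathway list, TRIM16 and PGD. The others were the cofilin phosphatase SSH1, the lysyl hydroxylase PLOD1, the ubiquitin ligase MKRN1, the alpha-catenin CTNNA1, the lipoprotein receptor LRP8 and ninjurin NINJ1. SSH1, at the top, averaged 84.2 ± 7.88 TPM in siSOX10_1 libraries and 32.0 ± 8.32 TPM in siSOX10_2 libraries, against 27.0 ± 3.62 TPM with siCNTL and 30.0 ± 3.38 TPM in untreated cells.

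The libraries held 20396 to 23564 genes above 0 TPM, and TPM keep no depth, so the precision that depth gives is unknown. All 7 melanocyte markers examined were above 1 TPM on average in every group. Their summed level was 421 to 2835 TPM with siSOX10_1 and 387 to 2106 TPM with siSOX10_2, against 6947 to 11189 TPM with siCNTL. Keratinocyte, endothelial and leukocyte markers were under 1 TPM in all libraries except KRT10, PECAM1 and CD14. The 5 fibroblast markers summed to 11.4 to 15.99 TPM with siSOX10_1, 12.5 to 15.1 TPM with siSOX10_2 and 2.27 to 4.90 TPM with siCNTL, and their part in the results was not tested. In bulk RNA, more cells with a transcript and more of it per cell cannot be told apart.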

How the data were processed

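The authors deposited 1 table of TPM per gene for 12 A2058 libraries, with gene names and coordinates. DRAGEN and bcl2fastq are named in the submitters' processing notes, without versions, and the sources name neither build nor strand setting. Libraries were made with SMART-Seq and Nextera XT kits, per the labels' protocols. GENCODE v29 (GRCh38) held 94.8% of the identifiers, 99.9% of these at an overlapping place, so coordinates are given as GRCh38.

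The test took the 15738 genes that reached 1 TPM in 3 or more libraries, among them 9 of the 10 genes described and 62 of 69 others. Values were tested as log2(TPM + 1) with limma 3.58.1 in R 4.3.3 (group means of all 12 libraries, trend and robust options, Benjamini-Hochberg adjustment over all genes, threshold 0.05), and the fit was checked on simulated data. The 9 genes that passed were tested in the mean of both SOX10 siRNAs against siCNTL and in siCNTL against untreated cells. Neither comparison contains the difference that chose them, but the first uses the same siRNA libraries. The genes and lists were chosen with earlier results of these data known. Genes named from each list were those called, up to 4 with the largest change. ABCC4, GGT1, GCLC, CUL3, BACH1, HMOX1, AKR1B15 and AKR1C2 were named after their values were seen. The labels give the replicate number as a batch, so it pairs the libraries. Deviations from group means correlated at a median of 0.179 between libraries sharing a batch (18 pairs) and -0.0974 otherwise (36 pairs). Alternatives were the batch as a block, pseudocounts of 0.1 and 5, no filter or 5 TPM, median-of-ratios scaling, untreated cells as the control, and leaving out batch 3 or each library. Results for 1 gene of the pathway lists are not reported here, though the counts include it.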

Additional observations from a re-analysis of the deposited data

How the results depend on the processing

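TPM hold no counts or depth, groups have 3 libraries, and low genes depend on the pseudocount. Counts of called genes in both comparisons with siCNTL by single siRNA, and in their mean, stayed within 1.5 times under the alternatives run, of which untreated cells as the control was run for the mean of both siRNAs and not for each siRNA alone. Between the siRNAs the 245 genes called were 488 with the batch as a block (replicate block), 138 with a pseudocount of 0.1, 123 without a filter and 403 without batch 3, and 73 to 279 without 1 library. The 8 other pathway genes called there were 5 without a filter, 12 with the block, and 2 to 9 without 1 library. Between siCNTL and untreated cells 34 genes were called without batch 3, none of them among the 9 tested genes or the 62 others, and 0 under the other alternatives. The block changed no call of the 9 tested genes. Without batch 3 OSGIN1 turned from -0.36 to 0.37 in the mean of both siRNAs and was called (limma adjusted p = 0.0184). Other differences, near 0, changed sign. Without batch 3 these were, between siCNTL and untreated cells, NFE2L2 (0.017), AKR1B10 (0.21, and 0.0082 with a pseudocount of 5) and GCLM (0.060). Without 1 library the difference of the mean of both siRNAs from siCNTL ran from -0.33 to 0.18 for NFE2L2 and from -0.62 to 0.083 for OSGIN1. Between siCNTL and untreated cells it ran from -0.34 to 0.17 for NFE2L2, -0.29 to 0.16 for AKR1B10, -0.35 to 0.053 for TXNRD1, -0.070 to 0.18 for SRXN1, -0.15 to 0.11 for GCLM and -0.72 to 0.24 for OSGIN1. The causes were not tested.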
